A study of Mus musculus with 28 samples.

Results

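Cartilage of the medial tibial plateau was set against the subchondral bone beneath it in mouse knees that had a sham operation. All 14 sham arrays of the 28 arrays in the series were taken, 6 of cartilage and 8 of subchondral bone, by the tissue in the source field and the operation in the title. The study profiled microRNAs (miRNAs) after DMM, an operation that destabilizes the medial meniscus to model osteoarthritis, or after the sham operation, at 1 and 6 weeks. The sham cartilage groups held 3 arrays at 1 week and 3 at 6 weeks, each a pool of 3 mice. The sham subchondral bone groups held 4 arrays at 1 week and 4 at 6 weeks, each of a single mouse. All were male wild-type C57BL6 mice operated on at 10 to 12 weeks of age. In the sham knees the medial ligament that the DMM operation cuts was exposed and left whole, and the joint was rinsed with saline. Epiphyses were decalcified in 10% EDTA for at least 72 h, and both tissues were cut by laser from cryosections of 10 µm. From each array sample 70 ng of RNA was labelled for an Agilent mouse miRNA array.

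miRNAs are short RNAs that pair with messenger RNAs through a seed near their 5′ end and lower translation and stability of the messages. Articular cartilage holds chondrocytes in a matrix without blood vessels, and miR-140, made from an intron of Wwp2, is the miRNA best known for its abundance there. Subchondral bone holds osteoblasts, osteoclasts and osteocytes together with marrow, vessels and blood, whose cells carry well-known miRNAs of their own, such as miR-451a of red cells and miR-223 of myeloid cells. The labels state no aim for a comparison of the tissues themselves.

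The mature sequences of the miRNAs with the largest differences, taken from RefSeq for GRCm38.p6, are shown first, 5′ to 3′, with the seed (bases 2 to 8) in capitals. Of the 569 miRNAs in the deposited table, 466 matched a mature sequence there. These 3 were among the most strongly higher in cartilage and have seeds of their own.
miR-140-3p: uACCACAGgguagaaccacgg
miR-455-3p: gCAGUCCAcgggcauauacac
miR-210-3p: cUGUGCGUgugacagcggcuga
The next 8 form seed groups whose shared members with a matched sequence were all higher in cartilage.
miR-99a-5p: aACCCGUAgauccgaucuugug
miR-99b-5p: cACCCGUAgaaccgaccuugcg
miR-100-5p: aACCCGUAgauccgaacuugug
miR-125a-5p: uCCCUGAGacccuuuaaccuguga
miR-125b-5p: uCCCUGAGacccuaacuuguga
miR-29a-3p: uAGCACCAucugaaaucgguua
miR-29b-3p: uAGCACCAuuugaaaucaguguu
miR-29c-3p: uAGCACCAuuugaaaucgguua
The next 8 are the members of the miR-17-92 family that were lower in cartilage, which fall into 3 seed groups.
miR-20a-5p: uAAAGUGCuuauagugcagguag
miR-20b-5p: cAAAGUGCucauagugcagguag
miR-93-5p: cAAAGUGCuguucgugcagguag
miR-106b-5p: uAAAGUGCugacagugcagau
miR-19a-3p: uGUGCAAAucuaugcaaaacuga
miR-19b-3p: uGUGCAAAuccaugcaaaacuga
miR-25-3p: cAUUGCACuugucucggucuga
miR-92a-3p: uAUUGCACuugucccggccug
The 4 miRNAs of blood, leukocytes and vessels that were furthest below bone in cartilage have seeds of their own.
miR-223-3p: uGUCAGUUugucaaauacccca
miR-451a: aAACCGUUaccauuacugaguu
miR-142a-3p: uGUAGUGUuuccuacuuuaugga
miR-126a-3p: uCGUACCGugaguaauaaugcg

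Values are deposited log2 signals, so a difference of 1 between tissues is 2-fold. The table gave a value on every cartilage array for 438 miRNAs and on every bone array for 490, and 359 were shared. Over the shared miRNAs the cartilage arrays correlated with each other at 0.967 to 0.996 (Pearson, across miRNAs, which are not independent replicates) and the bone arrays at 0.817 to 0.981. Between the tissues the correlations were 0.650 to 0.849. The median SD within a group was 0.17 in cartilage and 0.37 in bone. Tissue, pooling of mice and any separate normalization of the tissues cannot be told apart here. Another label field names the cartilage samples as bone, and the levels of miR-140 given next were read against the source field. The results were also computed without replicate 1 at 1 week and replicate 3 at 6 weeks of bone, which stood furthest from the cartilage arrays, with mean correlations to them of 0.691 and 0.657.

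Sham cartilage and sham subchondral bone differed in most of the miRNAs they shared. With limma, 224 of the 359 shared miRNAs passed an adjusted p of 0.05 (62.4%), of which 95 were higher in cartilage (26.5%) and 129 lower (35.9%). At least 2-fold differences were called for 49 higher (13.6%) and 63 lower (17.5%) miRNAs. The cartilage arrays all lay above the bone arrays for 45 miRNAs (12.5%) and all below them for 69 (19.2%), so the tissues did not overlap for 114 (31.8%). The median difference over all 359 miRNAs was -0.12, with an SD of 1.20 between miRNAs. The split of calls moved with the scaling of the arrays, so that quantile normalization gave 110 higher and 108 lower, centring on array medians 118 and 101, and centring on array 75th percentiles 152 and 72. Those scalings moved the median of all miRNAs to 0.0046, 0.04 and 0.27, and a miRNA's difference can be read against these medians. In bulk tissue of this kind, fewer cells of a type and less RNA per cell cannot be told apart. Without the 2 bone arrays set apart above, a choice made after seeing the data, 234 miRNAs passed, 104 higher and 130 lower.

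**Figure D1:**
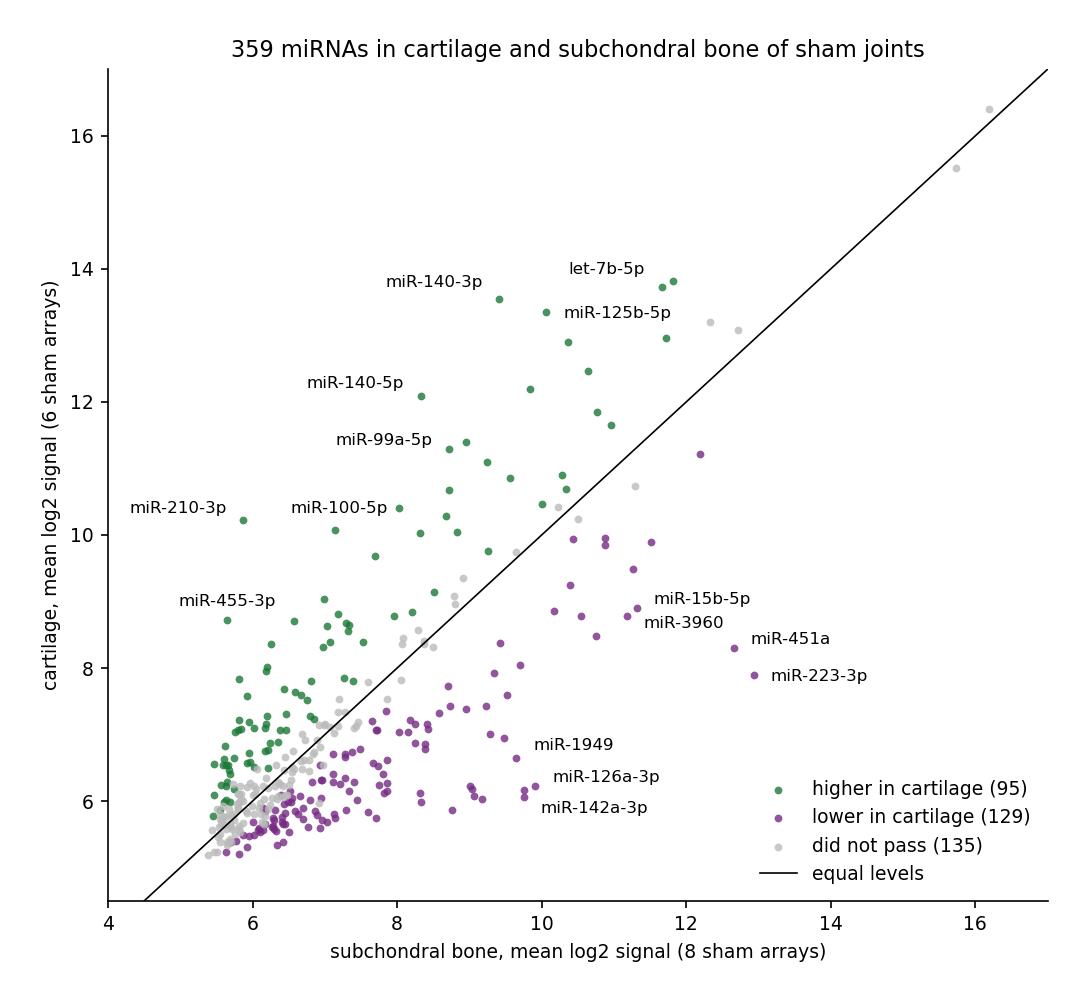
Mean log2 signal in sham cartilage (vertical axis, 6 arrays) against sham bone (horizontal axis, 8 arrays) for the 359 shared miRNAs, coloured by whether they were higher (95), lower (129) or not called (135) in cartilage, with the line of equal levels. Points lie far from that line on both sides, with miR-140-3p and miR-210-3p above it and miR-223-3p and miR-451a below it.

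The cartilage-enriched miRNAs were 8.37-fold to 17.5-fold higher in cartilage than in bone. miR-140-3p had log2 signals of 13.40, 13.53 and 13.74 in cartilage (lowest, median and highest) against 9.04, 9.32 and 9.98 in bone. Every cartilage pool was above every bone array by a wide margin, and the means were 13.55 ± 0.11 in cartilage (SD, n = 6) and 9.41 ± 0.35 in bone (SD, n = 8). The difference was 4.13 ± 0.14 (SE), or 17.5-fold, with a limma adjusted p of 1.8e-11. miR-140-5p, the other arm of the same hairpin, had 12.00, 12.05 and 12.23 in cartilage against 7.51, 8.21 and 9.76 in bone. Its groups did not overlap either, and it was 13.6-fold higher (3.76 ± 0.26, SE, limma adjusted p 1.62e-08). The Mir140 hairpin lies in Wwp2 at chr8:107551244-107551313 (GRCm38.p6). miR-455-3p, which like miR-140 is known from chondrocytes, had 8.48, 8.72 and 8.92 in cartilage against 5.03, 5.73 and 6.27 in bone. It was 8.37-fold higher (3.07 ± 0.18, SE, limma adjusted p 4.85e-09), and miR-455-5p had values in cartilage only, at a mean of 7.05 ± 0.18 (SD, n = 6). The bone mean of miR-455-3p, 5.65, lay below 6.01, the 25th percentile of mean level over the shared miRNAs, so its fold is uncertain in size. Under the deposited values and the 3 other scalings the 3 tested members stayed higher, with a list median between 3.58 and 4.15.

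miR-210-3p, a miRNA induced by low oxygen through HIF in many cells, had the largest positive difference among those named. Its log2 signals were 10.06, 10.21 and 10.45 in cartilage against 5.09, 5.97 and 6.59 in bone. The lowest cartilage pool was far above the highest bone array. The means were 10.23 ± 0.14 in cartilage (SD, n = 6) and 5.87 ± 0.50 in bone (SD, n = 8), a 20.5-fold difference of 4.36 ± 0.21 (SE, limma adjusted p 1.08e-09). It was higher at 1 week by 4.16 and at 6 weeks by 4.56. Its mean rank among the 359 miRNAs of an array, with 1 the highest, was 29.2 in cartilage and 274.5 in bone. The bone mean lay below 6.01, the 25th percentile of mean level over the shared miRNAs, so the size of the fold is uncertain.

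**Figure D2:**
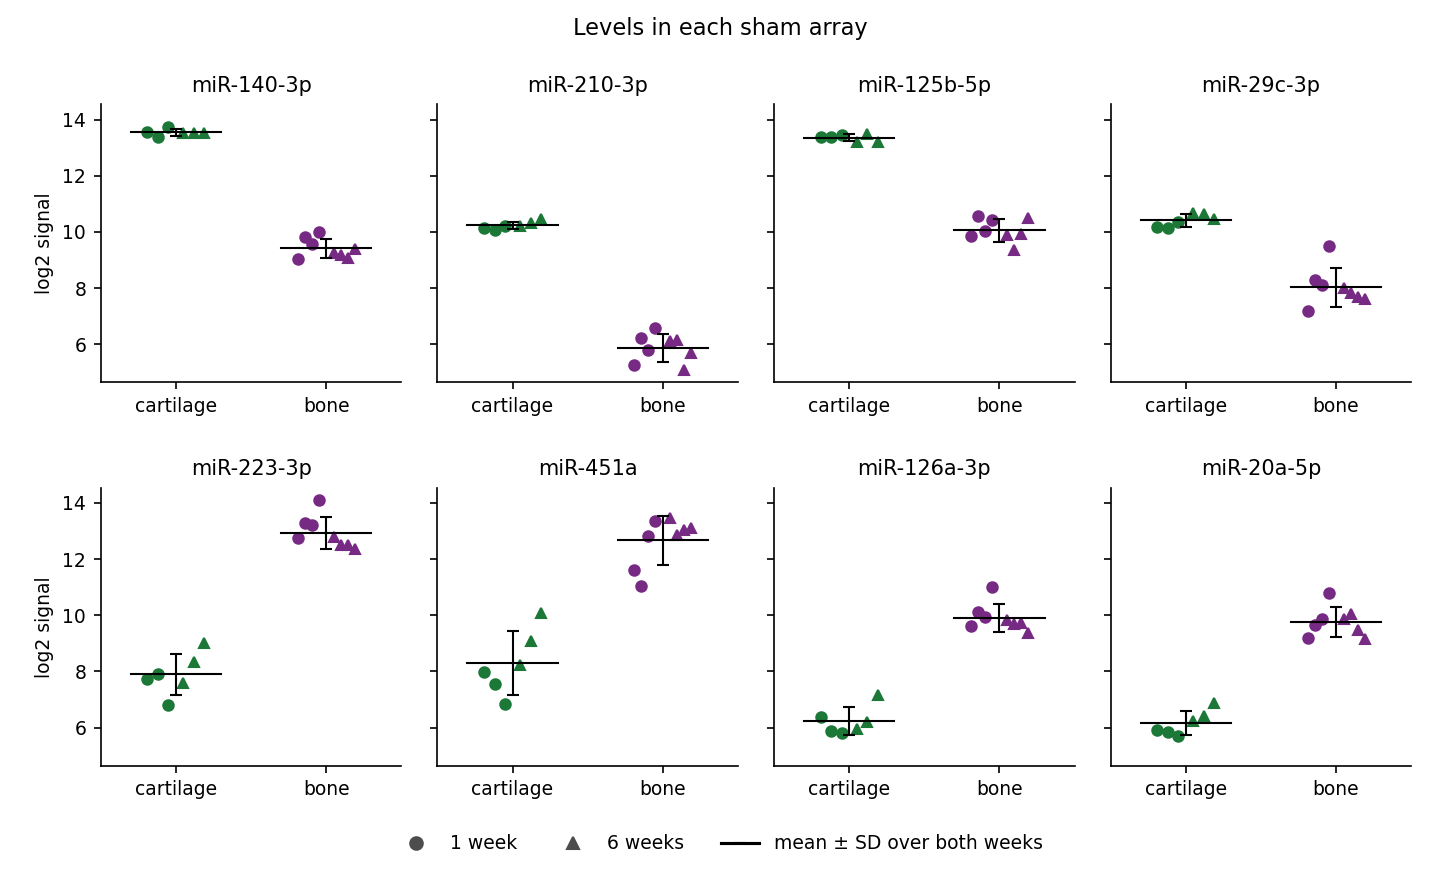
Log2 signal of 8 miRNAs in each sham array, cartilage (6 pools) left and bone (8 mice) right in each panel, with circles for 1 week, triangles for 6 weeks and bars for the mean ± SD. In all 8 panels the tissues do not overlap, with miR-140-3p, miR-210-3p, miR-125b-5p and miR-29c-3p higher in cartilage and miR-223-3p, miR-451a, miR-126a-3p and miR-20a-5p lower.

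The 5p arms of the miR-99/100 and miR-125 seed groups were higher in cartilage. Of 7 tested arms in the list, 5 were higher, 1 was lower and 1 did not pass, with a median difference of 1.77. Among all shared miRNAs 26.5% were higher and 35.9% lower. miR-125b-5p had 13.20, 13.38 and 13.49 in cartilage against 9.35, 9.97 and 10.55 in bone, without overlap. Its means were 13.35 ± 0.12 (SD, n = 6) and 10.07 ± 0.41 (SD, n = 8), a 9.76-fold difference (3.29 ± 0.17, SE, limma adjusted p 1.54e-09). The other called members of these seeds differed by 2.93 ± 0.22 (SE) for miR-100-5p, 2.57 ± 0.17 for miR-99a-5p, 1.77 ± 0.18 for miR-99b-5p and 1.32 ± 0.17 for miR-125a-5p. Positions counted from 1 at the 5′ end, miR-100-5p differs from miR-99a-5p by U16A alone, so probes for this pair target nearly the same RNA, and how far they share signal was not tested. The passenger arm miR-99b-3p was lower, at -0.38, in the deposited values, and the sign turned to 0.0068 after centring on 75th percentiles. miR-125a-3p differed by -0.28 ± 0.16 (SE) with a limma adjusted p of 0.149.

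The miR-29 family, whose members target messages for collagens and other matrix proteins, was also higher, with a median difference of 2.06 over its 3 tested members. All 3 were called higher, against 26.5% of all shared miRNAs. miR-29c-3p had 10.14, 10.41 and 10.69 in cartilage against 7.18, 7.91 and 9.48 in bone. Its groups did not overlap, and it was 5.25-fold higher (2.39 ± 0.26, SE, limma adjusted p 2.3e-06). miR-29a-3p differed by 1.81 ± 0.16 (SE). miR-29b-3p ran between 8.72 and 9.42 in cartilage against 6.01 and 8.76 in bone, and here the highest bone array lay just above the lowest cartilage pool. It passed all the same (2.06 ± 0.31, SE, limma adjusted p 6.23e-05). The opposite arms miR-29b-1-5p and miR-29c-5p had values in cartilage only. The only base that differs between miR-29a-3p and miR-29c-3p is C10U, counted from the 5′ end, and how far their probes share signal was not tested.

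The 5 tested members of the miR-23/27/24 clusters were all higher in cartilage, against 26.5% of all shared miRNAs, with a median difference of 2.36. miR-23a-3p averaged 12.90 ± 0.17 in cartilage (SD, n = 6) and 10.36 ± 0.32 in bone (SD, n = 8), a 5.81-fold difference. miR-23b-3p and miR-24-3p differed by 2.44 ± 0.15 and 2.36 ± 0.15 (SE). These 3 did not overlap between tissues. miR-27a-3p and miR-27b-3p did overlap, with differences of 1.23 ± 0.25 and 1.62 ± 0.27 (SE). miR-23a-5p had values in cartilage only.

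The let-7 family, known for holding back proliferation and embryonic programmes, was higher in part. Of 9 tested members 7 were higher, against 26.5% of all shared miRNAs, let-7i-5p was lower and let-7g-5p did not pass. The median difference of the 9 was 0.99. let-7b-5p averaged 13.73 ± 0.11 in cartilage (SD, n = 6) and 11.66 ± 0.23 in bone (SD, n = 8), a difference of 2.07 ± 0.12 (SE). let-7c-5p and let-7e-5p differed by 1.99 ± 0.12 and 1.71 ± 0.19 (SE), and these 3 and let-7a-5p, at 1.24 ± 0.12, did not overlap between tissues. let-7i-5p differed by -0.49 ± 0.19 (SE, limma adjusted p 0.0407). Leaving out any 1 of the 6 cartilage pools, replicate 1 or 2 of bone at 6 weeks or replicate 2 of bone at 1 week ended that call, with limma adjusted p from 0.0541 to 0.0776. let-7d-5p, higher by 0.35, lost its call without replicate 2 of cartilage at 1 week (limma adjusted p 0.0537) and without the 2 bone arrays that stood apart (0.051). let-7g-5p differed by 0.19 ± 0.17 (SE). Quantile normalization left 4 members higher and 1 lower, at a median of 0.28, while centring on 75th percentiles gave 8 higher and 0 lower. let-7a-5p and let-7f-5p were among those not called after quantile normalization, at 0.21 and 0.13 (limma adjusted p 0.475 and 0.623). The list leaves out let-7j and let-7k, which were lower in level at -0.29 ± 0.13 and -0.44 ± 0.15 (SE), with limma adjusted p of 0.0619 and 0.0187, and let-7k lost its call under each of the 3 other scalings.

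Smaller differences were seen in other families of broad expression. miR-26a-5p was higher by 1.09 ± 0.14 (SE) without overlap, and miR-101a-3p was higher by 1.25 ± 0.28. miR-26b-5p and miR-101c did not pass, with differences of 0.43 ± 0.24 and 0.52 ± 0.27 (SE). All 9 tested miR-30 arms had positive differences, between 0.16 and 0.63, of which 3 passed, miR-30a-3p, miR-30b-5p and miR-30d-5p. Those 3 of 9 lie near the 26.5% called higher of all shared miRNAs. The other scalings called 5 to 8 of the 9 as higher, but they also raised the higher calls among all 359 from 95 to between 110 and 152. miR-30a-3p lost its call without replicate 1 or 3 of cartilage at 1 week, replicate 2 or 3 of cartilage at 6 weeks or replicate 4 of bone at 6 weeks (limma adjusted p 0.0518 to 0.0723).

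The lists of blood, leukocyte, endothelial and vessel-wall miRNAs were lower in cartilage or had values in bone only, with 0 of their 16 miRNAs in the table called higher in cartilage, 7 lower and 9 without a cartilage value. Of all shared miRNAs 35.9% were lower, and 23% of the miRNAs in the table had values in bone only. miR-223-3p, a regulator of neutrophil and osteoclast development, had 6.79, 7.82 and 9.01 in cartilage against 12.37, 12.78 and 14.09 in bone. The highest cartilage pool was far below the lowest bone array. The means were 7.89 ± 0.75 in cartilage (SD, n = 6) and 12.94 ± 0.57 in bone (SD, n = 8), a difference of -5.05 ± 0.26 (SE), or 33.1-fold lower, with a limma adjusted p of 1.46e-09. Its mean rank was 87.3 in cartilage and 5 in bone.

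miR-451a, which drives red cell maturation, had 6.84, 8.11 and 10.09 in cartilage against 11.04, 12.95 and 13.46 in bone. The groups did not overlap, and cartilage was 20.7-fold lower (-4.37 ± 0.37, SE, limma adjusted p 1.93e-07). miR-486a-5p, also of red cells, was 5.07-fold lower, and miR-144-3p, miR-144-5p and miR-486a-3p had values in bone only. The cartilage pools of miR-486a-5p lay at 5.73 to 6.35, around 6.01, the 25th percentile of mean level, so its fold is uncertain in size. Mir451a and Mir144 lie together at chr11:78073005-78073241 (GRCm38.p6).

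Among leukocyte miRNAs, miR-142a-3p had 5.26, 5.78 and 7.53 in cartilage against 8.82, 9.55 and 11.49 in bone, with no overlap and a 12.8-fold difference (-3.68 ± 0.37, SE, limma adjusted p 1.07e-06). miR-342-3p, made from an intron of Evl, averaged 7.38 ± 0.20 in cartilage (SD, n = 6) and 8.95 ± 0.20 in bone (SD, n = 8), and differed by -1.57 ± 0.12 (SE). miR-155-5p, a miRNA of activated lymphocytes and macrophages, differed by -0.57 ± 0.16 (SE), overlapped, and lost its call after centring on 75th percentiles. miR-142a-5p, miR-150-5p and miR-342-5p had values in bone only. miR-126a-3p, the endothelial miRNA encoded in Egfl7, had 5.82, 6.07 and 7.18 in cartilage against 9.39, 9.78 and 11.02 in bone. Its groups did not overlap and cartilage was 12.9-fold lower (-3.68 ± 0.23, SE, limma adjusted p 8.5e-09). The cartilage means of miR-142a-3p and miR-126a-3p, 6.07 and 6.23, lay near 6.01, the 25th percentile of mean level, so their folds are uncertain in size. miR-126a-5p, and miR-143-3p and miR-145a-5p of smooth muscle, had values in bone only.

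The blood and vessel miRNAs were not at the same level in every cartilage pool. miR-451a was 8.00, 7.54 and 6.84 in replicates 1, 2 and 3 at 1 week and 8.23, 9.07 and 10.09 at 6 weeks. Replicate 3 at 6 weeks was highest and replicate 3 at 1 week lowest for the summed erythroid, leukocyte and endothelial signals. Those sums, on the log2 scale, were 7.41 to 10.18 in cartilage against 11.15 to 13.52 in bone for the 2 erythroid members, 8.46 to 9.87 against 12.65 to 14.35 for the 4 leukocyte members, and 5.82 to 7.18 against 9.39 to 11.02 for the endothelial member. The cartilage-enriched sum ran the other way, 13.93 to 14.21 in cartilage against 9.54 to 10.92 in bone. The part of blood and marrow RNA in the differences of the other miRNAs was not tested.

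**Figure D3:**
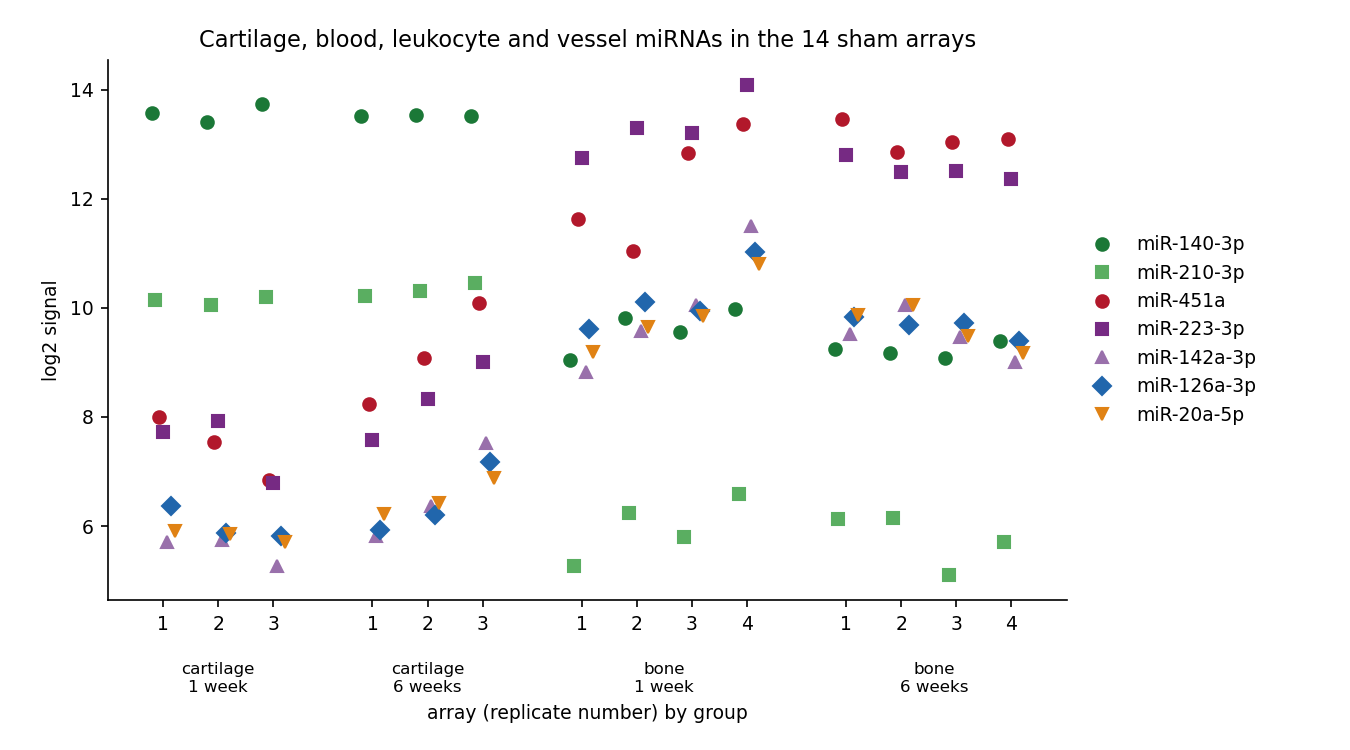
Log2 signal of 7 tissue-marker miRNAs in each of the 14 sham arrays, cartilage pools left and bone arrays right. miR-140-3p and miR-210-3p are higher in every cartilage pool than in any bone array, and the blood, leukocyte and endothelial markers are lower in the cartilage pools and vary among them, with miR-451a between 6.84 and 10.09.

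Muscle miRNAs gave a mixed reading. miR-206-3p, of skeletal muscle, lay at 5.13 to 5.55 in cartilage against 5.86 to 7.30 in bone and was lower, without overlap, and miR-499-3p did not pass at -0.23. miR-1a-3p, miR-133a-3p and miR-133b-3p, the most abundant miRNAs of muscle, had values in cartilage only. Their means were 6.31 ± 0.54, 6.00 ± 0.51 and 6.53 ± 0.58 (SD, n = 6). miR-133b-3p ran between 6.07 and 7.48, highest in replicate 1 at 1 week. Of the epithelial miR-200 list 1 miRNA, miR-200c-3p, was in the table, with values in bone only, and of the neural list miR-128-3p was lower, at -1.24, and miR-132-3p had values in bone only.

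The miR-17-92 cluster and its paralogs, which promote cell division and are active in marrow progenitors, had 8 tested members, and all 8 were lower in cartilage without overlap. Of all shared miRNAs 35.9% were lower, and 19.2% lay below bone without overlap. The median difference of the 8 was -2.66, and their calls stood under all 3 other scalings. miR-20a-5p had 5.72, 6.06 and 6.87 in cartilage against 9.17, 9.76 and 10.80 in bone. Each cartilage pool was below each bone array, and the means of 6.17 ± 0.43 in cartilage (SD, n = 6) and 9.76 ± 0.53 in bone (SD, n = 8) differed by -3.59 ± 0.23 (SE), or 12.1-fold, with a limma adjusted p of 8.5e-09. The cartilage mean lay near 6.01, the 25th percentile of mean level, so this fold is uncertain in size. The other members with the miR-20a seed, miR-93-5p, miR-20b-5p and miR-106b-5p, differed by -3.14 ± 0.16, -2.89 ± 0.25 and -2.78 ± 0.26 (SE). Those with the miR-19 seed differed by -2.54 for miR-19b-3p and -1.76 for miR-19a-3p, and those with the miR-25/92a seed by -1.93 for miR-25-3p and -1.67 for miR-92a-3p. The cartilage pools of miR-93-5p lay at 5.77 to 6.35, and those of miR-20b-5p at 5.53 to 6.46. For miR-106b-5p they lay at 5.95 to 6.74, and for miR-19a-3p at 5.30 to 6.13. These levels are also near 6.01, so the sizes of these differences are uncertain too. A further 6 arms of the list had values in bone only, among them miR-17-5p and miR-18a-5p, as had miR-106a-3p of the paralog cluster on chromosome X, which the list leaves out. The 8 come from separate places in GRCm38.p6, including the cluster at chr14:115043671-115044506 and the one in Mcm7 at chr5:138165321-138165818. For 6 of the 8, the highest cartilage pool was again replicate 3 at 6 weeks.

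Other families of cell growth and immune cells were lower in part. In the miR-15/16 family, known for restraining the cell cycle, 3 of 6 tested members were lower and 3 did not pass, against 35.9% lower of all shared miRNAs. Quantile normalization and centring on 75th percentiles each gave 1 member higher and 3 lower. miR-15b-5p averaged 8.90 ± 0.19 in cartilage (SD, n = 6) and 11.32 ± 0.37 in bone (SD, n = 8), a difference of -2.42, while miR-15a-5p differed by 0.09 with a 95% interval of -0.44 to 0.63. miR-16-5p and miR-322-5p were lower, at -0.93 ± 0.19 and -1.42 ± 0.29 (SE). miR-181a-5p and miR-181b-5p, of lymphoid development, were lower, at -0.98 ± 0.12 and -1.10 ± 0.13 (SE), without overlap. miR-181d-5p was lower, at -0.79, and lost its call after centring on 75th percentiles, and miR-181c-5p did not pass at -0.39. miR-21a-5p, induced by inflammation and linked to osteoclast formation, averaged 8.48 ± 0.40 in cartilage (SD, n = 6) and 10.75 ± 0.62 in bone (SD, n = 8) and differed by -2.27 ± 0.25 (SE).

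The miRNAs linked to bone cells did not move as one. In the osteoblast-linked list, miR-3960 averaged 8.78 ± 0.15 in cartilage (SD, n = 6) and 11.18 ± 0.93 in bone (SD, n = 8), and miR-2861, from the same cluster, averaged 7.43 ± 0.08 and 8.74 ± 0.20. Both were lower in cartilage, with differences of -2.39 and -1.31. The third tested member, miR-29b-3p, was higher in cartilage, miR-204-5p and miR-34b-5p had values in cartilage only, and miR-218-5p in bone only. The 3 tested osteoclast-linked members, miR-223-3p, miR-21a-5p and miR-155-5p, were lower, against 35.9% of all shared miRNAs. The call of miR-155-5p was lost after centring on 75th percentiles. In this list miR-31-5p had values in cartilage only, at 6.06 ± 0.26 (SD, n = 6), and miR-21a-3p and miR-503-5p in bone only. Of the 3 tested, miR-223-3p and miR-155-5p also stand in the leukocyte list. miR-34a-5p, induced by p53, differed by -0.63 and lost its call under each of the 3 other scalings, and without replicate 1 or 2 of cartilage at 1 week or replicate 2 of cartilage at 6 weeks (limma adjusted p 0.0529 to 0.0574).

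**Figure D4:**
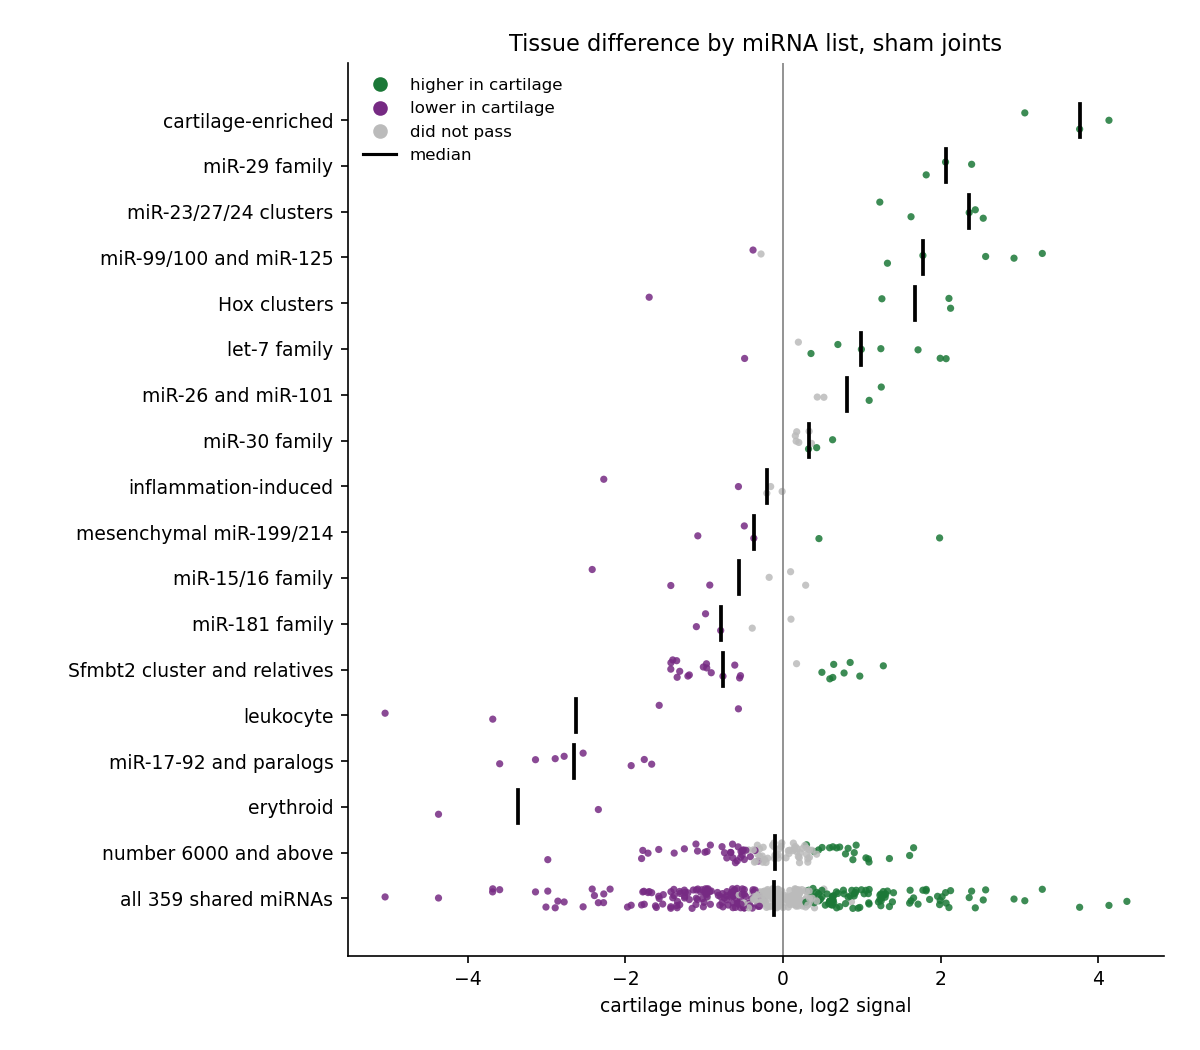
Difference of mean log2 signal, cartilage minus bone, for each tested member of 17 miRNA lists and for all 359 shared miRNAs, with the median as a black bar. The cartilage-enriched list has a median of 3.76 and the miR-17-92 list one of -2.66, against -0.12 over all shared miRNAs.

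Some miRNAs with one seed were called in opposite directions. Seeds were known only for miRNAs with a matched sequence, so the groups can lack members. Of 25 seeds with at least 2 shared miRNAs, 5 had all members higher, 3 had all members lower and 5 had members called in both directions. Since 26.5% of all shared miRNAs were higher and 35.9% lower, groups of unrelated miRNAs would also part at times. How often was not tested, so these counts are not read as an effect of the seed. The clearest pair differs by 1 base, U12A, counted from 1 at the 5′ end of miR-10a-5p.
miR-10a-5p: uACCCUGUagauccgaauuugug
miR-10b-5p: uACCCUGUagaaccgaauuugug
miR-10b-5p had 8.19, 8.37 and 8.52 in cartilage against 5.71, 6.26 and 7.18 in bone, and was 4.3-fold higher (2.10 ± 0.20, SE, limma adjusted p 5.53e-07). miR-10a-5p had 5.90, 6.11 and 6.44 in cartilage against 7.31, 7.61 and 8.93 in bone, and was 3.25-fold lower (-1.70 ± 0.20, SE, limma adjusted p 4.46e-06). Neither miRNA overlapped between the tissues. The cartilage values of miR-10a-5p and the bone values of miR-10b-5p lay near 6.01, the 25th percentile of mean level. Both folds are therefore uncertain in size. The genes lie in different Hox clusters, Mir10b beside Hoxd4 and Mir10a beside Hoxb3. miR-196a-5p and miR-196b-5p, also of Hox clusters, were higher by 2.12 ± 0.22 and 1.25 ± 0.22 (SE).

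miR-103-3p and miR-107-3p, from introns of the Pank genes, differ by G22C, counted from the 5′ end of miR-103-3p, and also parted.
miR-103-3p: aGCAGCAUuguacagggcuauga
miR-107-3p: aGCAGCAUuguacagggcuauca
miR-103-3p averaged 8.37 ± 0.08 in cartilage (SD, n = 6) and 9.42 ± 0.28 in bone (SD, n = 8), and was lower, at -1.05 ± 0.13 (SE, limma adjusted p 7.85e-06), without overlap. miR-107-3p averaged 9.14 ± 0.12 in cartilage and 8.51 ± 0.45 in bone, and was higher by 0.63 ± 0.18 (SE, limma adjusted p 0.00784) with overlap. How far the probes of such near-identical pairs read each other's target was not tested.

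The connective tissue list of miR-199 and miR-214 split as well. miR-199b-5p was higher by 1.98 ± 0.27 (SE) and miR-199a-5p lower, at -1.08 ± 0.20, both without overlap. miR-199a-3p, at 0.45, and miR-214-3p and miR-214-5p, at -0.49 and -0.37, passed by less. miR-214-5p lost its call without replicate 3 of cartilage at 6 weeks (limma adjusted p 0.0604). miR-199a-3p lost it without replicate 1 or 3 of bone at 1 week, replicate 3 of bone at 6 weeks or any cartilage pool but replicate 1 at 6 weeks (limma adjusted p 0.054 to 0.0818), without the 2 bone arrays that stood apart (0.0849) and under quantile normalization (0.1). miR-214-3p lost it without replicate 2 or 4 of bone at 1 week, replicate 1 or 4 of bone at 6 weeks or any cartilage pool but replicate 3 at 6 weeks (limma adjusted p 0.0707 to 0.0958), with a trended robust prior (0.0504) and under all 3 other scalings, at -0.34 to -0.10 (0.171 to 0.696). miR-214-5p also lost it after centring on array medians (limma adjusted p 0.119), and centring on 75th percentiles turned it to 0.02. By name, 25 miRNAs had both arms among the shared miRNAs. Both arms were called in the same direction for 3 of them, miR-140, miR-214 and miR-6984, and in opposite directions for 7, miR-99b, miR-199a, miR-328, miR-574, miR-466f, miR-466h and miR-466i. With 26.5% of all shared miRNAs higher and 35.9% lower, unrelated pairs would also part at times, and their rate was not tested. miR-574-3p was higher by 1.28 and miR-574-5p lower, at -1.02, a call lost after centring on 75th percentiles. miR-328-3p was higher by 0.68 and miR-328-5p lower, at -1.10. miR-6984-5p lost its call without any 1 of the cartilage pools, replicate 1 or 3 of bone at 1 week or replicate 2 or 3 of bone at 6 weeks (limma adjusted p 0.0514 to 0.102), without the 2 bone arrays that stood apart (0.0903) and under each of the 3 other scalings. Centring on 75th percentiles also ended the calls of miR-6984-3p, miR-466f-5p and miR-466i-5p.

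The list of the Sfmbt2 cluster, a large array of related rodent miRNAs in an intron of that imprinted gene, and of its relatives parted largely by arm. The list is not a single cluster, since miR-466i-3p, miR-669n and miR-467f were placed on chromosomes 13, 3 and 11. Of the 25 tested members, 8 were higher and 16 lower, against 26.5% and 35.9% of all shared miRNAs. All 13 whose name ends in 5p were lower, at -1.42 to -0.54, with a median of -0.97. Of the 7 whose name ends in 3p, 5 were higher, miR-669f-3p did not pass at 0.17 and miR-468-3p was lower at -1.34. miR-669p-3p, the highest of them, was higher by 1.27 ± 0.17 (SE, limma adjusted p 1.79e-05), and miR-466h-5p, the lowest 5p member, was lower, at -1.42 ± 0.23 (limma adjusted p 0.000129). Among the 5 tested members with no arm in the name, 3 were higher and 2 lower. A further 8 members had values in bone only and 1 in cartilage only. Many of these members are near copies of each other in sequence, and how far their probes share signal was not tested. Centring on 75th percentiles gave 9 higher and 12 lower.

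The late-numbered miRNAs, with numbers of 6000 and above, showed no common direction. Of 100 tested, 19 were higher, 32 lower and 49 did not pass, with a median of -0.11, near the 26.5% higher, 35.9% lower and median of -0.12 of all shared miRNAs. The split turned with the scaling, and quantile normalization gave 29 higher and 24 lower, centring on 75th percentiles 41 and 9. miR-7015-5p, among the named lower miRNAs, averaged 6.08 ± 0.29 in cartilage (SD, n = 6) and 9.07 ± 1.29 in bone (SD, n = 8), with bone arrays spread from 7.56 to 11.15. Outside that list, miR-3474 had a like spread in bone, with means of 6.19 ± 0.33 in cartilage and 9.04 ± 1.31 in bone. miR-1949 was tighter, at 6.55, 6.61 and 6.81 in cartilage against 9.45, 9.65 and 9.82 in bone, and was 8.04-fold lower (-3.01 ± 0.10, SE, limma adjusted p 1.8e-11).

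For several miRNAs of inflammation and vessel growth the tissues were not told apart. miR-146a-5p differed by -0.21, with a 95% interval of -0.64 to 0.23, and miR-146b-5p -0.16, with -0.74 to 0.43. miR-212-3p differed by -0.01, with -0.38 to 0.36. miR-221-3p and miR-222-3p differed by 0.04, with -0.45 to 0.54, and by -0.13, with -0.49 to 0.23.

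Ranks within each array do not depend on how the arrays were scaled. By an exact two-sided permutation test over all 3003 allocations of 6 and 8 arrays, with Benjamini-Hochberg adjustment, 217 miRNAs differed in rank (60.4%), 107 ranked higher in cartilage (29.8%) and 110 lower (30.6%). The smallest p this design can give is 0.000333. Level and rank shared 196 calls, and all 224 level calls had the same direction by rank. A further 28 were called by level only and 21 by rank only. let-7a-5p was one of the first kind, with a mean rank of 9.0 in cartilage and 10.5 in bone. miR-26b-5p was one of the second, at 42.2 in cartilage and 59.9 in bone. The 20 miRNAs with the highest mean rank in each tissue had 10 in common, among them let-7a-5p, let-7b-5p, let-7c-5p and miR-26a-5p. miR-140-3p ranked 4.83 in cartilage and 46.3 in bone, miR-125b-5p 6.67 and 32, and miR-451a 76.5 and 6.25.

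The tissue difference was seen at each week. At 1 week 131 miRNAs passed (36.5%), 64 higher in cartilage (17.8%) and 67 lower (18.7%), and at 6 weeks 190 passed (52.9%), 85 higher (23.7%) and 105 lower (29.2%). Both weeks shared 120 calls of the same sign. All 224 miRNAs called over both weeks had the same sign at each week. They were called on the mean of the 2 weekly differences, so this agreement is largely built in and is not separate evidence. The change of the difference between weeks passed for 0 miRNAs (0%) by limma with Benjamini-Hochberg adjustment, and 9 had an unadjusted p under 0.05 (2.51%). The smallest p was that of miR-223-3p, whose difference was -4.23 at 6 weeks and -5.86 at 1 week, a change of 1.63 ± 0.51 (SE, unadjusted p 0.00709, limma adjusted p 0.686). The next in that direction were miR-378b, miR-149-5p, miR-24-3p and miR-10a-5p, with changes of 1.13, 0.73, 0.74 and 0.93. In the other direction stood miR-206-3p at -0.79, miR-6971-5p at -0.44, miR-6401 at -0.55, miR-32-3p at -1.14 and miR-294-3p at -0.68, all with a limma adjusted p of 0.686. With 3 pools and 4 mice a week, an adjusted p above 0.05 does not show that the tissue difference was equal at the 2 times.

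The same contrast in the other 14 arrays, from DMM knees, gave 197 calls (54.9%). Of the 224 sham calls, 205 had the same sign there and 164 also passed. Of the 112 sham calls of at least 2-fold, 102 passed with the same sign. The other 10 were all lower in sham cartilage, and their DMM differences lay between -0.38 and 0.27. These 10 were miR-669n, miR-466m-5p, miR-468-3p, miR-669l-5p, miR-669e-5p, miR-669o-5p, miR-32-3p, miR-1187, miR-3082-5p and miR-574-5p, so 6 belonged to the Sfmbt2 list. That list held 25 of the 359 shared miRNAs, and its share of the 112 is not given here. Many of its members are near copies in sequence, so the 6 need not be separate events. Their change between operations was not tested here, and both sets of arrays share the limits of pooling and normalization.

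A further 79 miRNAs had values on every cartilage array and on no bone array (13.9% of the 569), and 131 the reverse (23%). A missing value is the deposited table's filter and not a level of 0, so no fold is given. miRNAs in cartilage only had means of 5.23 to 8.85 with a median of 5.85, and 15 of the 79 were above the mean of the cartilage array medians. miRNAs in bone only had means of 4.63 to 7.49 with a median of 5.62, and 14 of the 131 were above the mean of the bone array medians.

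The Dlk1-Dio3 cluster, an imprinted region of mouse chromosome 12 whose miRNAs come from the maternal chromosome, took a large share of the cartilage-only set. The cluster's list had 30 miRNAs among the 569 in the table. Of these, 24 had values in cartilage only, against 13.9% of all miRNAs in the table, and they made up 30.4% of the 79. miR-539-5p had values in bone only and 5 had both. The table holds 4 more miRNAs placed in this cluster that the list leaves out, miR-3070-3p with values in cartilage only, miR-412-3p in bone only, and miR-3070-2-3p and miR-3072-5p in both, at -0.20 ± 0.15 and -0.30 ± 0.14 (SE), neither of which passed. The 24 had means of 5.57 to 8.85 with a median of 6.15. miR-127-3p, the brightest cartilage-only miRNA, had 8.45, 8.90 and 9.09 over the 6 pools. miR-434-3p averaged 7.77 ± 0.14 (SD, n = 6). The positions of both genes fall within the span of Rtl1, but strands were not compared, so Rtl1 is not shown to be their host.
miR-127-3p: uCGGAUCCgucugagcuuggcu
miR-434-3p: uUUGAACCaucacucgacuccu
miR-299b-5p, miR-154-5p, miR-329-3p, miR-382-5p and miR-379-5p, also of the cluster, averaged 7.61, 7.61, 7.27, 6.82 and 6.59, so 7 of the 10 brightest cartilage-only miRNAs came from it. The other 3 were miR-455-5p, miR-133b-3p and miR-3106-5p. Of the 5 cluster members with values in both tissues, miR-487b-3p and miR-770-3p were higher in cartilage by 1.40 and 1.21, and miR-134-5p was lower, at -0.50. The call for miR-134-5p was lost after centring on array medians or 75th percentiles. miR-370-3p at 0.40 and miR-494-3p at -0.56 did not pass.

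The 10 brightest bone-only miRNAs were miR-378a-3p, at 7.49 ± 0.58 (SD, n = 8), miR-378d, miR-18a-5p, miR-142a-5p, miR-139-5p, miR-130b-3p, miR-150-5p, miR-7235-5p, miR-340-5p and miR-17-3p. miR-142a-5p and miR-150-5p, of leukocytes, averaged 7.29 ± 0.85 and 6.88, and miR-18a-5p and miR-17-3p, of the miR-17-92 cluster, 7.30 and 6.45. miR-378a-3p is made from an intron of Ppargc1b, a gene of mitochondrial metabolism. Late-numbered miRNAs made up 22 of the 79 cartilage-only miRNAs (27.8%) and 45 of the 131 bone-only miRNAs (34.4%), near their share of the table, 167 of 569 (29.3%).

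**Figure D5:**
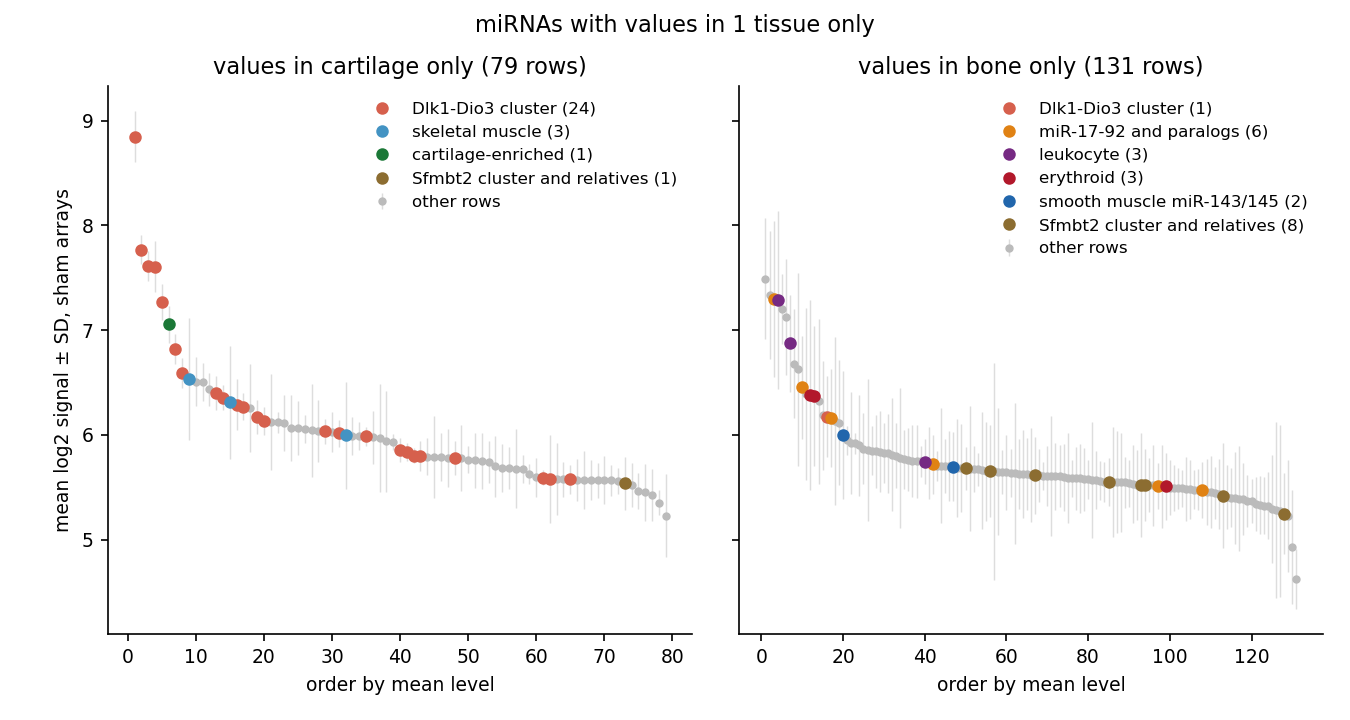
Mean log2 signal ± SD of the 79 miRNAs with values in cartilage only (left) and the 131 with values in bone only (right), in order of their means, coloured by list. Dlk1-Dio3 members, 24 of the 79, hold most of the brightest places on the cartilage side.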

How the data were processed

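miRNAs were measured on Agilent mouse miRNA arrays. The deposited table, made by the authors, holds log2 signals, as judged from its range of 4.08 to 16.74, and was used as deposited; limma 3.20.9 is named per the submitters' processing notes, while the sources used here do not give how background was corrected, arrays normalized or miRNAs filtered. Levels therefore carry an unknown scaling between tissues. The table had 0 unused sample columns.

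Log2 differences of cartilage minus bone were fitted here with limma 3.58.1 in R 4.3.3 (statmod 1.5.0), with 4 groups of sham arrays by tissue and week, empirical Bayes moderation and Benjamini-Hochberg adjustment over the 359 shared miRNAs. Ranks were taken within each array. Tables and figures were made with Python 3.11.15, pandas 2.3.3, numpy 2.4.6 and matplotlib 3.10.9. In the limma SEs and p-values, a common residual spread per miRNA joined that of pools in cartilage and of single mice in bone. The median SD within a group was 0.17 in cartilage and 0.37 in bone, so a common spread need not suit both. Array weights per tissue, which let the spread differ, gave 230 calls over both weeks. By the labels the same mice gave both tissues, but no pool is tied to its mice, so arrays were treated as independent. Scanner background was not used here, and the number of arrays limits the precision.

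The members and lists were chosen with earlier results of these data known. The text names the 15 largest called differences in each direction among miRNAs whose mean exceeds the 25th percentile, the 5 with the smallest p for the change between weeks in each direction, the 10 brightest in 1 tissue only, and any member of the lists; miRNAs outside this rule (miR-574, miR-328, miR-6984, let-7j, let-7k, those that a list leaves out, the 28 and 21 level-only or rank-only examples and the 10 not called in DMM arrays) were chosen after their values were seen. Both tests were run on simulated data with the spread of these arrays. Limma called 62% of log2 differences of 0.5 and 92.4% of those of 1, and the rank test 44.4% and 80.6%. Of unchanged miRNAs they called 1.61% and 4.83%. The miRNAs were drawn independently, so shifts shared across an array were not covered. In each simulation 40 of the 359 miRNAs were changed at each of the sizes 0.5, 1 and 2, with random sign. In the data 62.4% were called, so the adjustment and the ranks worked under other conditions and these rates need not carry over. Alternatives were 3 scalings, a filter on low levels, a trended robust prior, array weights per tissue, all 28 arrays in the fit, a replicate block, limma on ranks, other rules of presence, leaving out each array, and leaving out 2 bone arrays.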

Additional observations from a re-analysis of the deposited data

Results flagged for a closer look

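Of 121 sets of 6 cartilage or 8 bone values examined, 8 held an array whose gap to its nearest neighbour was large against the whole range (Dixon's 95% value). Chance gives about 1 in 20. Replicate 4 of bone at 1 week was the highest bone array in 6 of them, with 11.02 for miR-126a-3p, 11.49 for miR-142a-3p, 10.90 for miR-19b-3p, 10.08 for miR-20b-5p, 12.04 for miR-21a-5p and 8.76 for miR-29b-3p. That array also had the highest mean over the shared miRNAs, 7.39. Replicate 3 of bone at 6 weeks had 7.30 for miR-206-3p, and replicate 1 of cartilage at 6 weeks had 5.73 for miR-214-5p.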

How the results depend on the processing

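Calls over both weeks numbered 194 to 236 when each array was left out in turn, against 224 with all arrays. They numbered 102 to 151 at 1 week, 148 to 210 at 6 weeks and 196 to 226 by rank, and the change between weeks stayed at 0 to 0. Leaving out miRNAs below the median level, which leaves 180 to test, gave 135 calls over both weeks, 121 at 6 weeks and 128 by rank. A replicate block over the cartilage pools gave 241 calls over both weeks, 126 at 1 week, 189 at 6 weeks and 0 for the change. The correlation within blocks in that fit was -0.42. Deviations of same-numbered pools from the mean of their week correlated at 0.19, -0.46 and -0.18 between the weeks. With 3 pools a week, such deviations sum to 0, so these values cannot show or exclude a pairing by number. Without the 2 bone arrays that stood apart, chosen after seeing the data, calls were 234, 168, 209 and 0, and 208 by rank. Centring on array 75th percentiles turned miR-214-5p to 0.0166, miR-6971-5p to 0.0745, miR-7033-5p to 0.0322 and miR-99b-3p to 0.00677, none of them called there, and the cause was not tested beyond that scaling's shift of 0.27 in the median of all miRNAs. Of 159 called miRNAs followed through 23 alternatives, 112 kept direction and call in each alternative that tested them, 98 of the 159 being tested in all, and 47 lost the call in at least 1. Scaling and arrays set the limits: no deposited value says how bright a spot was over its background.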
